A study of Homo sapiens with 24 samples.

Results

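The DNA replication genes described here are 42 human genes whose products license, open, copy or supply DNA in S phase, together with regulators of the step from G1 into S phase. They were chosen by name: a probe belonged to the group when its RefSeq transcript, as given in the array files, was a transcript of a listed gene. All 42 were measured, and they are 42 of the 24647 genes tested. Their 53 probes were all well above background on all 24 arrays, and no spot of theirs was saturated. The brightest probe of a gene stands for it.

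The RNA came from HepaRG, a line founded from a hepatocellular carcinoma that can become hepatocytes or bile duct cells, and was read on 24 Agilent arrays with 1 dye (Cy3). The study asked what Wnt signals, and their block, do to such progenitors. The 8 conditions have 3 arrays each. Cells were left without siRNA, received 80 pmol of a negative control siRNA, received 80 pmol of an siRNA against CTNNB1 (the gene of β-catenin), or were left without siRNA and given 300 ng/ml FZD8_CRD, a soluble piece of the receptor Frizzled-8 that binds Wnt proteins. Each of these states was studied without Wnt3a and with 200 ng/ml Wnt3a. Both proteins were mouse recombinant proteins, added for 72 h to medium without serum. Cells with neither siRNA nor FZD8_CRD are called untransfected cells. Transfected cells had been detached and electroporated in suspension, so that this handling and the control siRNA itself cannot be told apart when they are set against untransfected cells. All samples come from cultures of 1 cell line, and the p-values measure only the spread between its samples. The 3 arrays per condition limit the precision. The arrays lay on 3 slides of 8 arrays each, the replicate number is the slide, and each condition had the same position on every slide, so that position and condition cannot be told apart.

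Levels are log2 of the background-subtracted spot intensity relative to the 75th percentile of the array, so that a level of 0 is the signal at that percentile. A level is compared between conditions for 1 gene and never between genes, since probes differ in brightness. Changes were tested with limma's two-sided moderated test over all 24647 genes. A gene is called when its p-value, adjusted by Benjamini and Hochberg over all genes tested, is under 0.05, and the words rose and fell are used for called genes.

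Before a cell copies its DNA, the origin recognition complex with CDC6 and CDT1 loads the MCM helicase on origins in G1, and CDC45 and the GINS complex then switch it on. Primase, the replicative polymerases, the PCNA clamp and its loader copy both strands, and the genes of these proteins are transcribed together near the start of S phase under E2F factors, as cyclin E drives the step from G1. In liver, differentiated hepatocytes rarely divide, and progenitors and regenerating hepatocytes switch these genes on.

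Because the members share this control, the stretches before their transcription starts are shown. Promoter sequences (RefSeq, GRCh38.p14) from 250 bases before to 50 bases after the start were at hand for 35 of the 42 members, in 44 windows of 35116. RPA2, CCNE2, MCM4, RPA3, MCM5, GINS4 and POLD3 had none. On both strands, 4 forms of E2F-type letters were searched, TTTCGCGC, TTTGGCGC, TTTCCCGC and TTTGCCGC. Of the 35 members, 18 (51.4%) hold at least 1 of them, against 3.99% of the 27305 genes in the table. The CCAAT box, read as CCAAT or ATTGG, is in 20 members (57.1%) and in 39.7% of all genes. Both kinds of letters are in 10 members (28.6%) and in 1.84% of all genes. The letters TTTGAA, known as CHR from cell cycle genes, are in 1 member, RRM1 (2.86%), and in 18.2% of all genes. A match is a description and shows no binding. The 160 bases just before the start are printed 5′ to 3′ for 6 members, chosen after the motifs were seen, with E2F-type letters and CCAAT boxes in capitals. They are E2F1 (chr20:33686386-33686545, minus strand), RRM2 (chr2:10122579-10122738, plus strand), MCM10 (chr10:13161398-13161557, plus strand), MCM6 (chr2:135876444-135876603, minus strand), PCNA (chr20:5126623-5126782, minus strand) and POLA2 (chr11:65261802-65261961, plus strand).
E2F1: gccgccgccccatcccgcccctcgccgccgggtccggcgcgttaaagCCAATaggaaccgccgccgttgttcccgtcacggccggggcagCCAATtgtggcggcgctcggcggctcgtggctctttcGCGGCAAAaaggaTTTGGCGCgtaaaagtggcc
RRM2: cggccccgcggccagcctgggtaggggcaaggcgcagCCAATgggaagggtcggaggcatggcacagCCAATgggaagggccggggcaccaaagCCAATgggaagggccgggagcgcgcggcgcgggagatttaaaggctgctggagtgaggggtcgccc
MCM10: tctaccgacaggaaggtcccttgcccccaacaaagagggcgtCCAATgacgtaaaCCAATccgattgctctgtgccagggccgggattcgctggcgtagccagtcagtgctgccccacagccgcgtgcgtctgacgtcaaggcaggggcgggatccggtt
MCM6: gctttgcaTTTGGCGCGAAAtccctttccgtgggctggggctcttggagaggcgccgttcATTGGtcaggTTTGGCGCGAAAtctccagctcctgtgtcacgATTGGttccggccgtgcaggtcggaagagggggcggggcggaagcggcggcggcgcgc
PCNA: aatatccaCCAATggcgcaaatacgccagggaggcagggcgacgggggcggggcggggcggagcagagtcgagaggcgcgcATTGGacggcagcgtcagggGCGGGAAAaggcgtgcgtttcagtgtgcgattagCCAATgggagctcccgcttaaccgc
POLA2: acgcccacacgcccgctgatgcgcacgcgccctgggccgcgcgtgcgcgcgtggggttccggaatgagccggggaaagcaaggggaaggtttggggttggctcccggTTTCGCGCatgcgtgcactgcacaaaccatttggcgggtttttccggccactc
In E2F1, which codes for an E2F factor itself, E2F-type letters begin 33 and 20 bases before the start, after CCAAT boxes at 113 and 70 bases. MCM6 carries 2 overlapping pairs of E2F-type letters, the runs TTTGGCGCGAAA that begin 152 and 90 bases before the start. RRM2 and MCM10 show CCAAT boxes and none of the 4 E2F-type forms in these windows, and POLA2 shows the reverse.

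The labels were checked first. CTNNB1, the target of the siRNA, was at 3.35, 3.37 and 3.51 with control siRNA and at 0.26, 0.35 and 0.52 with CTNNB1 siRNA. With Wnt3a it was at 3.39, 3.62 and 3.67 with control siRNA and at 0.33, 0.53 and 0.77 with CTNNB1 siRNA. Untransfected cells had 3.28, 3.27 and 3.57, and 3.40, 3.31 and 3.47 with Wnt3a, and FZD8_CRD cells had 3.23, 3.38 and 4.11, and 3.54, 3.98 and 3.89 with Wnt3a. The groups with CTNNB1 siRNA overlap with no other, and CTNNB1 fell by 3.03 ± 0.17 (SE) without Wnt3a (limma, adjusted p = 1.15e-09) and by 3.02 ± 0.17 with it (limma, adjusted p = 7.62e-10). AXIN2, a feedback gene of Wnt signaling, was at 0.48, 0.46 and 0.22 in untransfected cells and at 0.87, 0.66 and 0.74 with Wnt3a. It rose by 0.37 ± 0.10 (SE, limma, adjusted p = 0.0453), where scaling to the spike-in probes reverses it (-0.03), and with control siRNA it rose by 0.60 ± 0.10 (SE, limma, adjusted p = 0.00662), which with spike-in scaling was 0.76 and not called (limma, adjusted p = 0.539). With CTNNB1 siRNA (-0.26, adjusted p = 0.382) and with FZD8_CRD (0.13, adjusted p = 0.58), limma did not call AXIN2. Tested as a difference between responses, CTNNB1 siRNA against control siRNA gave -0.85 (limma, adjusted p = 0.0519), and FZD8_CRD against untransfected cells gave -0.24 (limma, adjusted p = 0.572), which spike-in scaling reverses (0.07). Other feedback genes did respond with FZD8_CRD, where 2 of 8 rose and 1 fell with Wnt3a, TCF7 rising by 1.64 (limma, adjusted p = 0.00108) and RNF43 by 0.81 (limma, adjusted p = 0.000216). With CTNNB1 siRNA limma called 0 of 8, with 1 at an unadjusted p under 0.05. Condition means of the hepatocyte genes ALB (6.61 to 9.41) and SERPINA1 (6.67 to 8.16) and of the bile duct gene KRT19 (7.91 to 8.50) were far over the 75th percentile. The leukocyte gene PTPRC (-4.10 to -3.53) and the endothelial gene VWF (-5.02 to -4.60) were far under it, the macrophage gene CD68 (0.31 to 1.82) was over it, and the red cell gene HBB was too dim to be tested.

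Each array was also placed between the other replicates of its own condition and the same state at the other Wnt3a setting, over genes whose means differ by more than 1. The FZD8_CRD array of replicate 3, without Wnt3a, was nearer to the arrays with Wnt3a for 1000 of 1135 such genes (88.1%). For TTR, a hepatocyte gene, it had 5.11, where replicates 1 and 2 had 1.55 and 1.21 and the arrays with Wnt3a 5.19, 5.30 and 5.23. The share was 66.3% and 62.4% for the untransfected arrays of replicate 3 without and with Wnt3a, 60.6% for CTNNB1 siRNA with Wnt3a of replicate 3, and at most 45.5% for the others. The cause was not tested, and no member was among the genes used. Without that FZD8_CRD array 41 of 42 members were called against untransfected cells, with a median change of 1.17, and 1 was called for Wnt3a with FZD8_CRD.

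The members were first described together across the 8 conditions. For each array, each member's level was taken relative to its own median over the 24 arrays, and the median of these 42 values describes the array. It was -1.20, -0.90 and -0.57 on the 3 arrays of untransfected cells and -0.78, -0.22 and -0.82 with Wnt3a. With control siRNA it was 0.06, -0.01 and 0.12, and -0.15, 0.06 and 0.03 with Wnt3a. The untransfected arrays thus lie below all arrays with control siRNA, and they differ among themselves by more. With CTNNB1 siRNA the values were -0.22, -0.14 and -0.35, and 0.33, 0.16 and -0.02 with Wnt3a. With FZD8_CRD they were 0.27, 0.40 and 0.40, and 0.40, 0.40 and 0.32 with Wnt3a. FZD8_CRD thus gave the highest condition means, and the untransfected array of replicate 2 with Wnt3a (-0.22) overlaps with those of CTNNB1 siRNA.

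**Figure D1:**
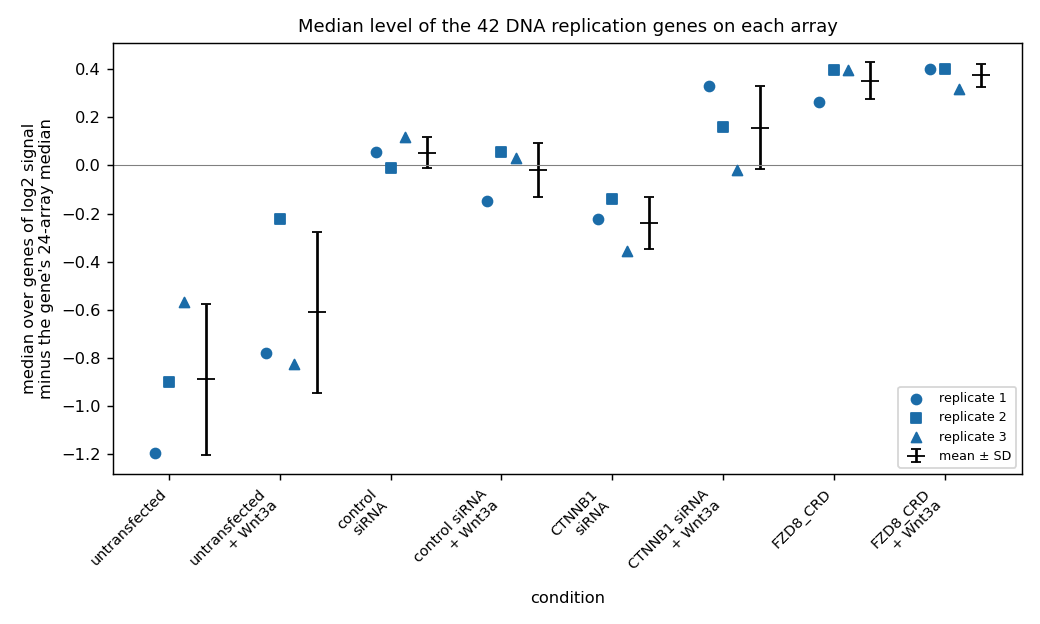
Median over the 42 DNA replication genes of the log2 signal minus each gene's median over 24 arrays, for 8 conditions, with a point per array (marked by replicate) and a bar at the condition mean. Untransfected cells are lowest (mean -0.89) and FZD8_CRD cells highest (0.35, and 0.37 with Wnt3a), with arrays scaled to their 75th percentile.

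The condition mean was lowest in untransfected cells without Wnt3a for 42 of 42 members, as it was for 20.1% of all genes. It was highest with FZD8_CRD for 17 members, with FZD8_CRD and Wnt3a for 23, and with CTNNB1 siRNA and Wnt3a for POLE and LIG1. These FZD8_CRD conditions, where 40 members peaked, were highest for 11.1% and 18.9% of all genes. The range of the 8 condition means had a median of 1.26 over the members and 0.61 over all genes. It was smallest for CCNE1 (0.65) and largest for RRM2 (1.94).

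The order at both ends depends on how arrays are scaled. Scaled to the 7 spike-in probes in place of the 75th percentile, untransfected cells with Wnt3a were lowest for 36 members and those without Wnt3a for 6. At the high end FZD8_CRD was highest for 26, FZD8_CRD with Wnt3a for 6, control siRNA for 2, control siRNA with Wnt3a for 5 and CTNNB1 siRNA with Wnt3a for 3. That scaling moves the median of all genes to -0.38 for Wnt3a in untransfected cells, 0.19 with control siRNA, -0.10 with CTNNB1 siRNA and -0.07 with FZD8_CRD. Against untransfected cells it moves it to -0.31 for control siRNA and -0.47 for FZD8_CRD, and with Wnt3a to 0.25 and -0.17. Between CTNNB1 siRNA and control siRNA it becomes 0.06, and -0.22 with Wnt3a. The distance of the members from the median of all genes is given with each comparison. It is the same under both scalings by arithmetic, since spike-in scaling shifts all genes of an array by the same amount.

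**Figure D2:**
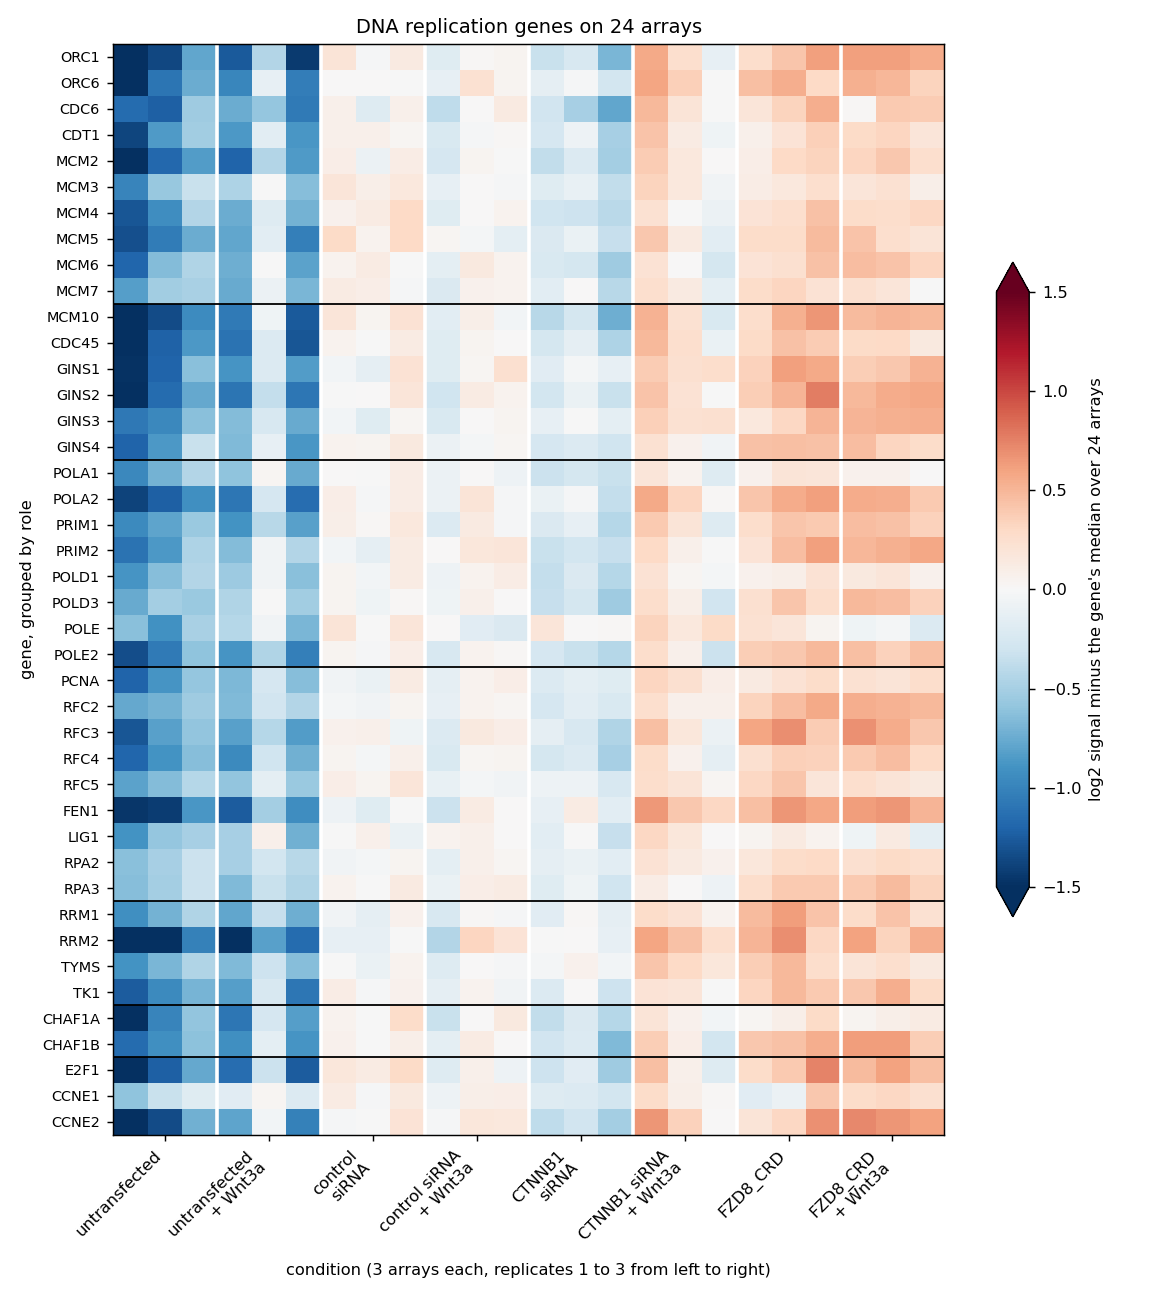
Level of each DNA replication gene on each of the 24 arrays, as log2 signal minus the gene's median over the arrays, with genes grouped by role on the vertical axis and conditions in blocks of 3 arrays on the horizontal axis. The arrays of untransfected cells are the low block, with their Wnt3a array of replicate 2 as the exception. In some roles it lies in or over the range of CTNNB1 siRNA, and in some within that of control siRNA with Wnt3a. For polymerases and primase it also lies within that of CTNNB1 siRNA with Wnt3a. Colours saturate at the ends of the scale.

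Control siRNA against untransfected cells shows what transfection and its handling go with. Without Wnt3a, 42 of 42 members rose, where 12.3% of all genes tested rose. Their median change was 0.93, which is 0.96 over the median of all genes, and all 42 were higher with control siRNA on each of the 3 slides. The smallest rise was that of CCNE1 (0.46) and the largest that of MCM10 (1.57). The slides differed in size, with member medians of 1.24, 0.90 and 0.68 on slides 1, 2 and 3. Without replicate 1 of every condition 9 of the 42 were called, and with spike-in scaling 10.

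With Wnt3a in both arms, 32 of 42 members rose with control siRNA, where 5.44% of all genes rose. The median change was 0.58, or 0.60 over the median of all genes, and slide medians were 0.62, 0.27 and 0.85. Whether control siRNA acts otherwise with Wnt3a than without was not tested. This count rests on few arrays. It was 0, 15 and 7 without replicate 1, 2 and 3 of every condition, 3 and 12 without the control siRNA array of replicate 2 and 3, and 2 and 12 without the untransfected array of replicate 1 and 3. It was 18 with no filter on dim probes, 5 with spike-in scaling and 0 when only the 6 arrays compared were fitted, with all 42 changes above 0 under spike-in scaling too.

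FZD8_CRD against untransfected cells compares cells that were never electroporated. Without Wnt3a, 42 of 42 members rose, where 19.7% of all genes rose. The median change was 1.22, or 1.30 over the median of all genes, with slide medians of 1.44, 1.29 and 0.98. With Wnt3a in both arms 40 of 42 rose, where 18.2% of all genes rose, with a median change of 0.96, or 1.04 over the median of all genes, and slide medians of 1.18, 0.59 and 1.11. POLE (0.29) and LIG1 (0.36) were not called there, and limma gave them an adjusted p of 0.0973 and 0.0621. With spike-in scaling 29 and 25 members were called, all upward. The comparisons of control siRNA and of FZD8_CRD use the same untransfected arrays, so their likeness is no independent evidence, and each is given by its own values.

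**Figure D3:**
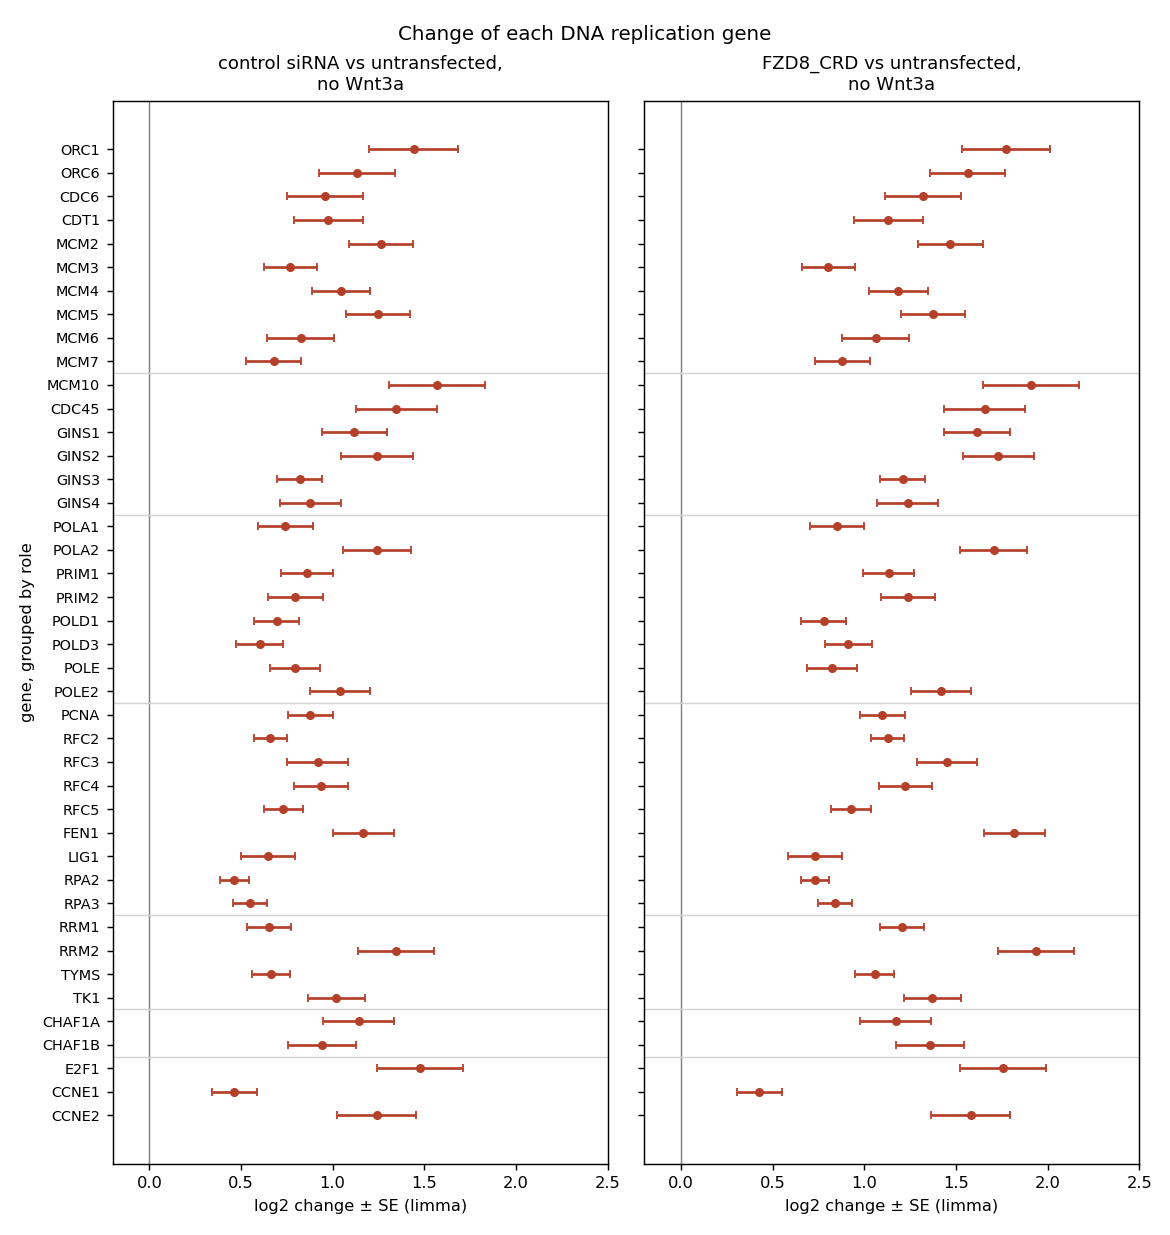
Log2 change of each of the 42 DNA replication genes against untransfected cells without Wnt3a, for control siRNA and for FZD8_CRD, with genes by role on the vertical axis, points at the limma estimate and bars of 1 SE. Every point is above 0, from 0.43 (CCNE1, FZD8_CRD) to 1.94 (RRM2, FZD8_CRD). With arrays scaled to spike-in probes all changes are above 0 too, from 0.04 (CCNE1, FZD8_CRD) to 1.55 (RRM2, FZD8_CRD).

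The 10 genes of origin licensing code for origin binders (ORC1, ORC6), the loaders CDC6 and CDT1, and the helicase subunits MCM2 to MCM7. All 10 rose with control siRNA (median 1.01) and with FZD8_CRD (1.25) without Wnt3a, and with Wnt3a 7 (0.58) and 10 (0.93) rose. MCM2, a subunit of the loaded helicase, was at 1.27, 1.76 and 2.10 in untransfected cells and at 1.73, 2.49 and 2.08 with Wnt3a. With control siRNA it was at 3.03, 2.85 and 3.05, and at 2.68, 2.98 and 2.93 with Wnt3a. All 6 of these arrays are above all 6 of untransfected cells. MCM2 was at 2.57, 2.73 and 2.42 with CTNNB1 siRNA and at 3.31, 3.09 and 2.94 with CTNNB1 siRNA and Wnt3a. With FZD8_CRD it was at 3.03, 3.23 and 3.27, and at 3.25, 3.34 and 3.18 with Wnt3a. Only the Wnt3a array of untransfected replicate 2 (2.49) reaches into the range of any other state, that of CTNNB1 siRNA. MCM2 rose by 1.26 ± 0.18 (SE, limma, adjusted p = 0.000133) with control siRNA and by 1.47 ± 0.18 (SE, limma, adjusted p = 2.7e-06) with FZD8_CRD.

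ORC1, the largest subunit of the origin recognition complex, was at -3.15, -2.66 and -2.07 in untransfected cells, at -1.10, -1.31 and -1.15 with control siRNA, and at -1.03, -0.87 and -0.67 with FZD8_CRD. With Wnt3a it was at -2.56, -1.73 and -2.73, at -1.47, -1.28 and -1.25, and at -0.68, -0.68 and -0.73 in the same order of states. No untransfected array reaches the others at either Wnt3a setting, and the untransfected arrays spread most. ORC1 rose with control siRNA by 1.44 ± 0.24 (SE, limma, adjusted p = 0.00042) and with Wnt3a in both arms by 1.01 ± 0.24 (SE, limma, adjusted p = 0.0146). With FZD8_CRD it rose by 1.77 ± 0.24 (SE, limma, adjusted p = 1.01e-05), and with Wnt3a in both arms by 1.64 ± 0.24 (SE, limma, adjusted p = 3.41e-05).

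The 6 genes of helicase activation are MCM10, CDC45 and the 4 GINS subunits. Their median change was 1.18 with control siRNA and 1.64 with FZD8_CRD, each with 6 of 6 called. MCM10, which acts when the loaded helicase is switched on, was at -3.27, -2.63 and -2.23 in untransfected cells, at -1.10, -1.25 and -1.07 with control siRNA, and at -1.02, -0.76 and -0.63 with FZD8_CRD. CDC45, a subunit of the active helicase, was at 1.45, 2.04 and 2.39 in untransfected cells and at 3.30, 3.25 and 3.37 with control siRNA. In both genes the untransfected arrays are the lowest and the most spread, and replicate 1 is the lowest of them. MCM10 rose by 1.57 ± 0.26 (SE, limma, adjusted p = 0.000403) and CDC45 by 1.35 ± 0.22 (SE, limma, adjusted p = 0.000372) with control siRNA. With FZD8_CRD MCM10 rose by 1.91 ± 0.26 (SE, limma, adjusted p = 1.05e-05). GINS2, a GINS subunit, was at 0.96, 1.71 and 0.98 in untransfected cells with Wnt3a and at 2.55, 2.62 and 2.64 with FZD8_CRD and Wnt3a. It rose by 1.39 ± 0.20 (SE, limma, adjusted p = 2.11e-05). When both arms had Wnt3a, MCM10 (0.76, limma adjusted p = 0.0744) and GINS4 (0.52, limma adjusted p = 0.0559) were not called with control siRNA.

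The 8 polymerase and primase genes had smaller changes, with medians of 0.80 for control siRNA and 1.02 for FZD8_CRD, each with 8 of 8 called. POLA2, a subunit of the polymerase that works with primase, stood out among them. It was at -0.63, 0.20 and -0.69 in untransfected cells with Wnt3a and at 0.36, 0.65 and 0.44 with control siRNA and Wnt3a. The groups do not overlap, and POLA2 rose by 0.86 ± 0.18 (SE, limma, adjusted p = 0.00847). POLE, the catalytic subunit of polymerase epsilon, behaved otherwise than most members. With Wnt3a it was at -1.98, -1.61 and -2.24 in untransfected cells, at -1.55, -1.73 and -1.77 with control siRNA and at -1.23, -1.39 and -1.27 with CTNNB1 siRNA. The first and second of these groups overlap, and POLE was not called between them (0.26, limma adjusted p = 0.258).

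The 9 genes of the clamp, its loader, Okazaki fragment joining and single-strand binding had medians of 0.73 for control siRNA and 1.096 for FZD8_CRD, with 9 of 9 called in each. PCNA, the clamp that holds polymerases on DNA, was at 3.83, 4.15 and 4.46 in untransfected cells and at 4.37, 4.78 and 4.41 with Wnt3a. In control siRNA cells it was at 4.98, 4.93 and 5.16, and at 4.90, 5.09 and 5.14 with Wnt3a. The untransfected arrays end at 4.78, below every array of the other states. PCNA was at 4.84, 4.90 and 4.86 with CTNNB1 siRNA and at 5.36, 5.28 and 5.14 with CTNNB1 siRNA and Wnt3a. With FZD8_CRD it was at 5.17, 5.25 and 5.31, and at 5.27, 5.24 and 5.30 with Wnt3a. The FZD8_CRD arrays all exceed those of control siRNA. PCNA rose by 0.88 ± 0.12 (SE, limma, adjusted p = 0.000136) with control siRNA and by 1.096 ± 0.12 (SE, limma, adjusted p = 1.4e-06) with FZD8_CRD.

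FEN1, the nuclease that trims Okazaki fragments, was at -0.15, -0.12 and 0.43 in untransfected cells and at 1.76, 1.96 and 1.89 with FZD8_CRD. With Wnt3a it was at 0.06, 0.80 and 0.37 in untransfected cells, at 0.99, 1.43 and 1.31 with control siRNA and at 1.93, 1.97 and 1.82 with FZD8_CRD. FEN1 thus takes its lowest values in untransfected cells, without overlap. It rose with FZD8_CRD by 1.82 ± 0.17 (SE, limma, adjusted p = 2.38e-07) and with Wnt3a in both arms by 1.49 ± 0.17 (SE, limma, adjusted p = 2.26e-06). With control siRNA and Wnt3a in both arms it rose by 0.83 ± 0.17 (SE, limma, adjusted p = 0.00596).

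The 4 genes of deoxynucleotide supply had medians of 0.84 for control siRNA and 1.29 for FZD8_CRD, with 4 of 4 called in each, and also with Wnt3a in both arms (0.61 and 1.03). RRM2, the regulated subunit of ribonucleotide reductase, was at -0.14, -0.10 and 0.51 in untransfected cells and at -0.19, 0.71 and 0.36 with Wnt3a. In control siRNA cells it was at 1.39, 1.40 and 1.51, and at 1.08, 1.84 and 1.72 with Wnt3a. All untransfected arrays are below all of these. RRM2 was at 1.52, 1.52 and 1.40 with CTNNB1 siRNA and at 2.11, 1.95 and 1.78 with CTNNB1 siRNA and Wnt3a. With FZD8_CRD it was at 2.03, 2.22 and 1.83, and at 2.13, 1.85 and 2.07 with Wnt3a. RRM2 is thus above every untransfected array in all transfected and FZD8_CRD samples. It rose with control siRNA by 1.34 ± 0.21 (SE, limma, adjusted p = 0.000248) and with Wnt3a in both arms by 1.25 ± 0.21 (SE, limma, adjusted p = 0.00238). With FZD8_CRD it rose by 1.94 ± 0.21 (SE, limma, adjusted p = 9.05e-07), and with Wnt3a in both arms by 1.72 ± 0.21 (SE, limma, adjusted p = 4.39e-06).

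The chromatin assembly genes CHAF1A and CHAF1B, which place histones on new DNA, both rose with control siRNA (median 1.04) and with FZD8_CRD (1.27). The control of the step from G1 to S phase is represented by E2F1 and the cyclin E genes CCNE1 and CCNE2. E2F1 was at -1.16, -0.52 and -0.07 in untransfected cells and at -0.44, 0.38 and -0.55 with Wnt3a. With control siRNA it was at 0.87, 0.83 and 0.99, and at 0.51, 0.78 and 0.62 with Wnt3a. These do not overlap with the untransfected arrays. E2F1 was at 0.39, 0.54 and 0.17 with CTNNB1 siRNA and at 1.15, 0.78 and 0.51 with CTNNB1 siRNA and Wnt3a. With FZD8_CRD it was at 0.98, 1.097 and 1.45, and at 1.18, 1.30 and 1.16 with Wnt3a. The untransfected replicate 2 with Wnt3a (0.38) is the only array of that state inside another state's range. E2F1 rose with control siRNA by 1.48 ± 0.24 (SE, limma, adjusted p = 0.000295) and with Wnt3a in both arms by 0.84 ± 0.24 (SE, limma, adjusted p = 0.0308). With FZD8_CRD it rose by 1.76 ± 0.24 (SE, limma, adjusted p = 8.39e-06), and with Wnt3a in both arms by 1.42 ± 0.24 (SE, limma, adjusted p = 0.000108).

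CCNE1, which codes for a cyclin that drives entry into S phase, had the smallest range of condition means of all members. It was at 1.19, 1.45 and 1.60 in untransfected cells and at 1.62, 1.82 and 1.58 with Wnt3a. Control siRNA cells had it at 1.91, 1.77 and 1.94, and at 1.72, 1.87 and 1.89 with Wnt3a. The groups without Wnt3a do not overlap, and those with Wnt3a do. CCNE1 was at 1.59, 1.58 and 1.51 with CTNNB1 siRNA and at 2.07, 1.88 and 1.81 with CTNNB1 siRNA and Wnt3a. With FZD8_CRD it was at 1.62, 1.70 and 2.20, and at 2.06, 2.10 and 2.03 with Wnt3a. The FZD8_CRD arrays without Wnt3a come close to the untransfected ones in replicates 1 and 2. CCNE1 rose by 0.46 ± 0.12 (SE, limma, adjusted p = 0.00979) with control siRNA and by 0.43 ± 0.12 (SE, limma, adjusted p = 0.00852) with FZD8_CRD. With spike-in scaling neither was called (0.18, limma adjusted p = 0.669, and 0.04, limma adjusted p = 0.921). The call with control siRNA was also lost without the untransfected array of replicate 1 and without replicate 1 or 2 of every condition. The call with FZD8_CRD was lost in these settings and without the FZD8_CRD array of replicate 3, and without replicate 1 it was at 0.42 (limma, adjusted p = 0.0568).

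Without replicate 1 of every condition, the calls of MCM10, E2F1, ORC1 and CDC45 with control siRNA and no Wnt3a were lost, at changes of 1.27, 1.20, 1.14 and 1.09, while MCM2, PCNA and RRM2 were called. With Wnt3a in both arms no member was called for control siRNA in that setting. There RRM2 was called in every other setting with arrays left out. FEN1, POLA2, ORC1 and E2F1 were also lost without the control siRNA array of replicate 2 or the untransfected array of replicate 1. ORC1 and E2F1 were lost as well without the replicate 3 array of either state, POLA2 and ORC1 without replicate 3 of every condition, and E2F1 without replicate 2 or 3 of every condition. With spike-in scaling PCNA was not called for control siRNA (0.60, limma adjusted p = 0.172) but was for FZD8_CRD (0.71, limma adjusted p = 0.0364), and E2F1 was not called for control siRNA with Wnt3a in both arms (1.11, limma adjusted p = 0.0543). For 9 members the array holds 11 further probes, and all 11 changed in the direction of the probe used in both FZD8_CRD comparisons and with control siRNA without Wnt3a. With Wnt3a in both arms 10 of 11 did so for control siRNA, the other POLE probe being at -0.21 where the one used was at 0.26.

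The response to Wnt3a itself was tested within each state. In untransfected cells 0 of 42 members were called by limma at an adjusted p under 0.05, where 5.60% of all genes were called, and 13 of 42 had an unadjusted p under 0.05, as had 21.2% of all genes. The median difference was 0.27, 0.25 over the median of all genes, and all 42 differences were above 0, while spike-in scaling reverses the median (-0.12) and leaves 6 above 0. The slides split. On slides 1 and 2 the member median was 0.43 and 0.72, with 40 and 42 members higher with Wnt3a, and on slide 3 it was -0.24, with 3 higher, while spike-in scaling gives -0.23, 0.14 and -0.19 and so reverses slide 1. The hepatocyte markers split on the same slides with the other sign (-1.25, -1.72 and 0.45, median -0.85), with 0 of 12 called by limma and 4 at an unadjusted p under 0.05. Of 7 fibroblast markers 6 rose with Wnt3a (median 0.93). The part of these markers in the result was not tested. Without replicate 3 of every condition 25 members were called, 10 without the untransfected array of replicate 3, and 7 and 1 without the Wnt3a array of replicate 3 and 1. Shares of all genes called in these settings are not given here, so the counts show only how the result hangs on single arrays. With the replicate number as a block 2 members were called, where 1501 of all 24647 genes rose and 1321 fell. With quantile normalization 1 was called, where 839 of all genes rose and 733 fell. PCNA had the smallest adjusted p (0.0803, limma), with differences of 0.53, 0.63 and -0.06 on the 3 slides and a mean of 0.37, which spike-in scaling reverses (-0.02).

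With control siRNA, 0 members were called for Wnt3a, where 2.11% of all genes were called by limma, and 0 had an unadjusted p under 0.05, against 14.0% of all genes. The median difference was -0.06, 0.09 under the median of all genes, and spike-in scaling reverses it (0.10). With CTNNB1 siRNA, 0 members were called, where limma called 0.0406% of all genes, and 35 of 42 had an unadjusted p under 0.05, against 10.4% of all genes. The median difference was 0.39, 0.36 over the median of all genes, and all 42 were higher with Wnt3a on each of the 3 slides, with slide medians of 0.56, 0.28 and 0.32. With spike-in scaling the median was 0.26, and 39 were higher on all 3 slides. The hepatocyte markers were lower with Wnt3a there on each slide (-1.38, -0.23 and -0.18, median -0.64), with 0 of 12 called by limma and 3 at an unadjusted p under 0.05, and their part in the result was not tested. CDC6 (0.75, limma adjusted p = 0.216) and CCNE2 (0.73, limma adjusted p = 0.243) had the largest differences.

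With FZD8_CRD, 0 members were called for Wnt3a, where limma called 8.29% of all genes, and 0 had an unadjusted p under 0.05, against 20.5% of all genes. The median difference was 0.01, 0.01 under the median of all genes, which spike-in scaling reverses (-0.08). Without replicate 3 of every condition, or without the FZD8_CRD array of replicate 3 alone, 1 member was called.

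**Figure D4:**
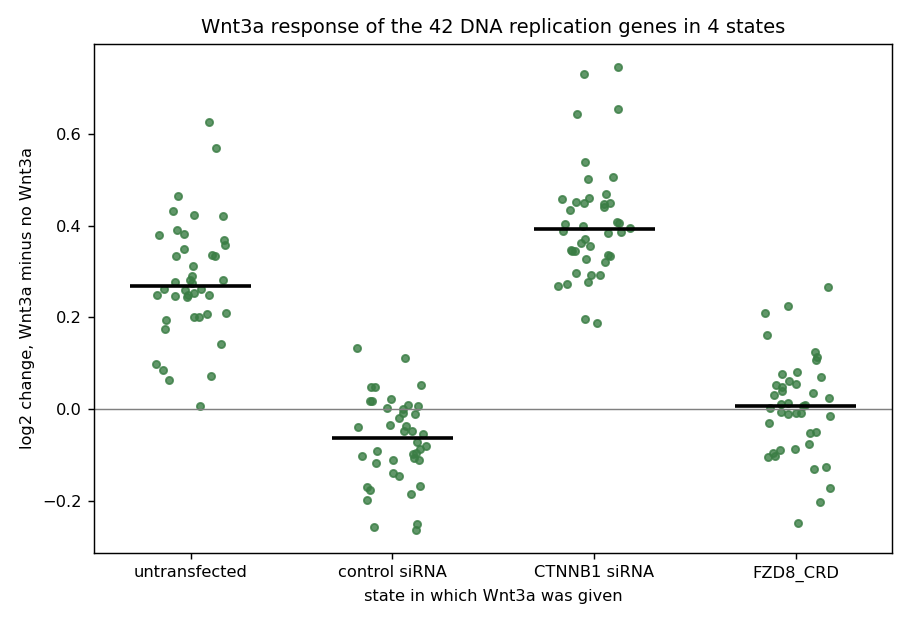
Log2 change with Wnt3a of the 42 DNA replication genes in the 4 states, with a point per gene and a bar at the median. All 42 points are above 0 with CTNNB1 siRNA (median 0.39) and in untransfected cells (0.27), and arrays scaled to spike-in probes reverse the medians in untransfected cells (-0.12), with control siRNA (0.10) and with FZD8_CRD (-0.08).

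Whether the response differs between states was tested as a difference of differences. Between CTNNB1 siRNA and control siRNA it was above 0 for 42 of 42 members, with a median of 0.44, 0.43 over the median of all genes, and of 0.15 with spike-in scaling. Limma called 0 of 42, where 0.0162% of all genes were called, and 22 had an unadjusted p under 0.05, against 3.34% of all genes. Slide medians were 0.77, 0.21 and 0.41. The largest differences were those of MCM10 (0.82) and CDC6 (0.82), and limma gave every member an adjusted p of 1. Between FZD8_CRD and untransfected cells the median was -0.29, 0.29 under the median of all genes, which spike-in scaling reverses (0.01). Limma called 0 of 42, where 0.0730% of all genes were called, and 3 had an unadjusted p under 0.05, against 12.7% of all genes. Slide medians were -0.32, -0.65 and 0.12, and without replicate 3 of every condition 2 members were called. The hepatocyte markers had a median of 0.75 here, with 0 of 12 called by limma and 6 at an unadjusted p under 0.05. That of the mitosis genes was -0.68, with 0 of 29 called and 24 at an unadjusted p under 0.05. Without the FZD8_CRD array of replicate 3 limma called 5 of 12 (0.83) and 18 of 29 (-0.88), and 0 of 42 members. The share of all genes called in that setting is not given here, so these counts do not show whether a list stands out. The part of these lists in the result was not tested.

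CTNNB1 siRNA was set against control siRNA to ask what loss of β-catenin goes with, both arms having been electroporated. Without Wnt3a 0 of 42 members were called by limma, where 10.6% of all genes were called, and 21 had an unadjusted p under 0.05, all lower, against 22.7% of all genes. The median difference was -0.32, 0.29 under the median of all genes, and 39 members were lower, 33 of them on each slide. By role the medians were -0.40 for origin licensing, -0.45 for the step from G1 to S phase, -0.34 for polymerases and primase, -0.20 for clamp and loader and -0.02 for deoxynucleotide supply, the last reversed by spike-in scaling (0.07). MCM4, a helicase subunit, had the smallest adjusted p (0.0511, limma), with differences of -0.36, -0.43 and -0.70 on the 3 slides. Of 7 fibroblast markers 3 fell with CTNNB1 siRNA without Wnt3a (median -0.43) and 5 with it (-1.47). The hepatocyte markers had median differences of 0.64 without Wnt3a and 0.52 with it. Limma called 0 and 2 of these 12, with 2 and 3 at an unadjusted p under 0.05. The part of both marker lists in the result was not tested. The count of members depends on the fit. It was 21 when only the 6 arrays compared were fitted, where 1931 of all 24647 genes rose and 2391 fell. It was 3 with the replicate block (1661 of all genes rose and 2433 fell) or with another background correction (915 and 1651). With probes well above background on all arrays it was 1, where 1085 of 21123 genes rose and 1462 fell.

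With Wnt3a in both arms, 2 of 42 members, FEN1 and TYMS, rose with CTNNB1 siRNA, where 4.08% of all genes rose. The median difference was 0.18, 0.19 over the median of all genes, which spike-in scaling reverses (-0.03), and slide medians were 0.51, 0.11 and -0.09. TYMS, which makes thymidylate, was at 6.21, 6.41 and 6.38 with control siRNA and at 6.81, 6.70 and 6.57 with CTNNB1 siRNA. FEN1 was at 0.99, 1.43 and 1.31 with control siRNA and at 1.96, 1.71 and 1.61 with CTNNB1 siRNA. In neither gene do the groups overlap. TYMS rose by 0.36 ± 0.10 (SE, limma, adjusted p = 0.0274) and FEN1 by 0.52 ± 0.17 (SE, limma, adjusted p = 0.0498), though limma gave both an adjusted p of 1 for the difference from the setting without Wnt3a. Neither was called without replicate 1 or 2 of every condition, without the CTNNB1 siRNA array of replicate 1 or 2, or without the control siRNA array of replicate 1 or 3. Without replicate 3 of every condition, or without its CTNNB1 siRNA array, TYMS alone was called, as when only the arrays compared were fitted or the probes of a gene were averaged. With no filter on dim probes and with spike-in scaling 0 were called.

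Other genes of the same machinery were set beside the members. Of 45 other replication genes, 38 rose and 1 fell with control siRNA without Wnt3a (median 0.75) and 42 rose and 1 fell with FZD8_CRD (1.06), led by UHRF1 (1.64 and 2.04), which acts on hemimethylated DNA behind the fork. With Wnt3a in both arms 22 rose with control siRNA (0.50) and 39 with FZD8_CRD (0.74), and FBXO5, an inhibitor of the anaphase-promoting complex, led both (0.91 and 1.43). For Wnt3a in untransfected cells only UHRF1 (1.08) was called.

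Mitosis genes, whose transcripts peak later in the cycle, went the same way as the members against untransfected cells. Of 29, 28 rose with control siRNA (median 1.01) and 28 with FZD8_CRD (1.59), and with Wnt3a in both arms 26 (0.77) and 27 (0.91). The largest rises were those of BUB1B (1.34) with control siRNA and ANLN (2.00) with FZD8_CRD. With CTNNB1 siRNA and no Wnt3a, where the member median was -0.32, that of the mitosis genes was 0.05, and 0 were called by limma with 1 at an unadjusted p under 0.05. With FZD8_CRD and Wnt3a against FZD8_CRD alone it was -0.32, where that of the members was 0.01, and limma called 0 with 10 at an unadjusted p under 0.05. Without the FZD8_CRD array of replicate 3 it was -0.53, with 15 of 29 called, where that of the members was 0.04, with 1 called. The share of all genes called without that array is not given here, so these counts do not show whether either list stands out. The difference between the lists was not tested.

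Against untransfected cells the median of the hepatocyte markers moved opposite to that of the members. Their median per array, each gene relative to its own 24-array median, was 2.26, 1.496 and 0.68 in untransfected cells and 1.03, -0.0013 and 1.17 with Wnt3a. With control siRNA it was -0.06, -0.18 and -0.24, and with FZD8_CRD -0.62, -0.93 and -0.21. With Wnt3a these were -0.70, -0.95 and -0.86, and -0.12, -0.15 and -0.16. CTNNB1 siRNA arrays had 0.67, -0.0035 and 0.42, and -0.55, -0.19 and 0.15 with Wnt3a, so that beside control siRNA with Wnt3a both markers and members were higher there, the members not so with spike-in scaling. Within untransfected cells without Wnt3a, the array with the highest markers, replicate 1, is also the array with the lowest replication genes. Of 12 markers 11 fell with control siRNA (median -1.77) and 11 with FZD8_CRD (-2.06), where AFP rose. When both arms had Wnt3a, 7 (-1.35) and 7 (-1.15) fell, and AFP rose again with FZD8_CRD. In that FZD8_CRD comparison TTR (mean 3.83 in untransfected cells, 5.24 with FZD8_CRD) and APOA1 (2.89 and 3.44) were higher too, though not called. ALB, the gene of albumin, was at 9.76, 9.45 and 9.01 in untransfected cells, at 7.84, 7.66 and 7.79 with control siRNA and at 7.95, 7.30 and 7.54 with FZD8_CRD. It fell by 1.65 ± 0.31 (SE, limma, adjusted p = 0.000893) with control siRNA and by 1.81 ± 0.31 (SE, limma, adjusted p = 0.000104) with FZD8_CRD. Of 7 fibroblast markers 3 fell in each of the comparisons without Wnt3a, and ACTA2 rose with FZD8_CRD. With Wnt3a in both arms limma called 2 of them with control siRNA (median -0.30) and 4 with FZD8_CRD (-0.37). The part of these markers in the result was not tested either, and in RNA from whole cultures fewer cells in S phase and less RNA per cell cannot be told apart.

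**Figure D5:**
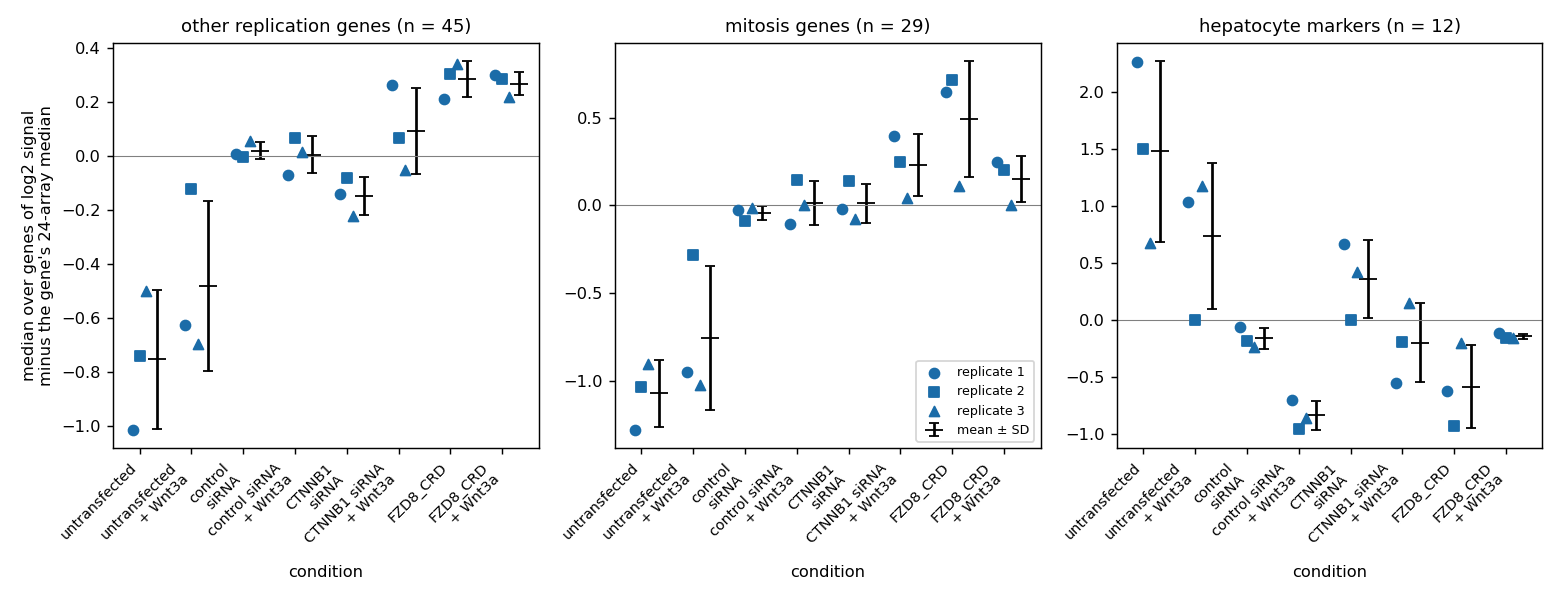
Median over the other replication genes, the mitosis genes and the hepatocyte markers of the log2 signal minus each gene's 24-array median, by condition, with a point per array marked by replicate and a bar at the condition mean. In untransfected cells without Wnt3a the means are -0.75, -1.07 and 1.48 in that order, with arrays scaled to their 75th percentile.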

How the data were processed

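The intensity values are those the authors deposited per array, spot intensity read with Agilent Feature Extraction (10.7.3.1 per the submitters' notes, 10.7.1.1 per the file headers), with background subtracted. Deposited log2 values, which the authors had scaled between arrays, served as an alternative. Here, outlier spots were set aside, a probe was kept when some condition had it well above background in all 3 replicates, values were divided by the array's 75th percentile, low ones were raised to a floor of 1.43% of it, and log2 was taken. The brightest probe stands for a gene. Tests used limma 3.58.1 in R 4.3.3, and tables and figures Python 3.11.15 and matplotlib 3.10.9. Alternatives were quantile normalization, spike-in scaling, deposited values, normexp background correction (offset 50, on median signals, since mean signals are absent), other filters, the mean of probes, the replicate number as block, only the arrays compared, and arrays left out. Same-numbered arrays of different conditions correlate (mean r 0.384, against -0.191 for other numbers). The r for other numbers is no separate evidence, since condition means were removed first. The main fit and its p-values leave this shared replicate effect out, and the replicate block takes it in. Named with a value are, per comparison, at most 5 called members with the largest changes in the same direction on every slide, the genes PCNA, MCM2, CCNE1, E2F1 and RRM2, and genes that decide a count. POLE, LIG1, GINS4, MCM4, CDC6 and CCNE2 were singled out after their values were seen. Members and lists were chosen with earlier results of these data known. The placing of each array between the Wnt3a settings was chosen after the values were seen.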

Additional observations from a re-analysis of the deposited data

Results flagged for a closer look

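Some members had a Wnt3a difference above 0 on all 3 slides with CTNNB1 siRNA and under 0 on all 3 with control siRNA, which is the reverse direction in the state that still has β-catenin. The difference between the responses, as estimated by limma, was 0.57 for CDT1, 0.55 for MCM3, 0.58 for MCM4, 0.61 for MCM5, 0.45 for GINS4, 0.44 for POLE, 0.47 for RFC5 and 0.71 for E2F1. Limma gave each an adjusted p of 1, so the reversal is not called. With spike-in scaling the pattern is gone, since all 8 are above 0 on slide 3 with control siRNA (E2F1 0.12, POLE 0.09, MCM5 0.04). The cause was not tested.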

How the results depend on the processing

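Counts of called members were recomputed under 9 alternatives and 27 settings with arrays left out. For Wnt3a in untransfected cells (0), quantile normalization gave 1 and the replicate block 2. For CTNNB1 siRNA against control siRNA without Wnt3a (0), normexp background correction gave 3, probes well above background on all arrays 1, the replicate block 3 and only the conditions compared 21. With Wnt3a (2), spike-in scaling and no filter gave 0, and the mean of probes and only the conditions compared gave 1. For control siRNA against untransfected cells, spike-in scaling gave 10 of 42 without Wnt3a, and with Wnt3a (32) spike-in scaling gave 5, no filter 18 and only the conditions compared 0. For FZD8_CRD with Wnt3a (40) spike-in scaling gave 25. The replicate block changed no other count by more than a factor of 1.5. With arrays left out, counts ran from 0 to 25 for Wnt3a in untransfected cells, from 0 to 1 for Wnt3a with FZD8_CRD, and from 0 to 2 for CTNNB1 siRNA against control siRNA with Wnt3a. They ran from 9 to 42 and, with Wnt3a, from 0 to 41 for control siRNA, and from 0 to 2 for the difference in response between FZD8_CRD and untransfected cells. For FZD8_CRD they ran from 41 to 42, and from 35 to 42 with Wnt3a. Shares of all genes called with arrays left out are not given, so these counts show only the dependence on single arrays. The largest called changes per comparison kept direction in all 198 alternative values, with 13 not called, and in all 198 values with arrays left out, with 39 not called.

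The 3 arrays per condition come from 1 cell line, and slide and replicate number are the same thing. The 75th percentile assumes an even bulk of RNA, and the 7 spike-in probes carry errors of labeling and dilution. By the paper's methods each array started from the same mass of total RNA, so neither scaling measures RNA per cell. Which scaling is nearer to the RNA levels of the samples cannot be told apart here. The rises against untransfected cells keep their direction under every scaling, while Wnt3a differences in untransfected cells do not. Comparisons against untransfected cells share those arrays. Handling, siRNA and position effects, and cell mixture and RNA per cell, cannot be told apart, and the cause was not tested.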
